A study of Mus musculus with 67 samples.

Results

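Microglia are the resident macrophages of the brain, and 2 ways of reading their RNA were set against each other here. In the first, microglia were sorted from fresh brain by a protocol that left out the enzymatic digest. In the second, HA-tagged ribosomes were pulled down with an anti-HA antibody from frozen whole brain, and the RNA held on them was sequenced. The members are the 4 libraries of cells sorted without digest and the 3 anti-HA pull-down libraries of the sorting-method experiment, 7 of the 67 libraries of the series. Of the 24411 genes counted in that experiment, 11529 had enough reads to be tested, and every statement on gene calls below refers to those.

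The libraries of both groups came from C57BL/6J mice of the genotype CX3CR1CreER/WT RLP22HA/HA, spelled as labelled. Cre joined to a modified estrogen receptor is expressed from the Cx3cr1 gene, and once tamoxifen is given it activates an HA tag on the ribosomal protein Rpl22 in the cells that express Cx3cr1. Both groups thus carry the CreER insertion on 1 allele of Cx3cr1, and both were given 5 mg tamoxifen by gavage in 4 doses at 4 to 6 weeks of age; the age at collection is not given in the sources used here. The sorted cells came from mice perfused with PBS. Their brains were chopped, filtered and spun through 40% Percoll, and the gate took GR1-negative, CD45-intermediate, CD11b-positive cells. For the pull-down, whole brain was flash-frozen, homogenized with cycloheximide and incubated with antibody for 4 h. The driver is active in other macrophages at the brain's borders as well as in microglia, so the pull-down draws on all tagged cells of the brain, whereas the sort draws on those that pass the gate. The same experiment holds 4 libraries of cells sorted after a collagenase digest of 20 min and 4 pull-downs with an isotype IgG, which measure the background of the pull-down. Replicates are described as individual mice, with sorting and pull-down done from the same animals, but no label says which libraries share a mouse.

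Messages on ribosomes are those being translated or held for translation, so a ribosome pull-down leaves out RNA that stays in the nucleus, whereas RNA from whole cells includes it. Microglia also respond quickly when handled: immediate early genes such as Fos and Jun, which encode transcription factors, and cytokine genes can be transcribed within minutes of a stimulus.

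The sorted libraries held 1079977 to 1252076 reads on genes, and the pull-down libraries 1425819 to 1714523. The sorted libraries detected 11945 to 12079 genes, fewer than the 13767 to 14101 detected in the pull-down libraries. Pearson's r of log2 CPM across genes lay at 0.981 to 0.984 among sorted libraries and at 0.975 to 0.977 among pull-down libraries, against 0.608 to 0.643 between the groups. Sorted replicate 4 stood apart from the others in neutrophil granule genes: S100a8, S100a9, Camp and Ngp together had 448 reads there, against 9 to 17 in the other sorted libraries and 5 to 8 in the pull-down libraries. Without that library 8191 genes were called, against 8397 with it. Xist, the noncoding RNA of the inactive X chromosome, had 249 to 333 reads per sorted library and 0 to 3 per pull-down library. The Y-linked gene Ddx3y had no read in the 4 sorted libraries and 2, 0 and 0 reads in the pull-down libraries. Eif2s3y, Kdm5d and Uty, Y-linked as well, had no read in either group. The sex of the mice is not in the labels.

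Between cells sorted without digest and pull-down, 8397 of 11529 genes (72.8%) passed an adjusted p of 0.05 in edgeR's quasi-likelihood test, 3679 of them higher (31.9%) and 4718 lower (40.9%). By a stricter test, edgeR's test against a fold change of 2, 4612 genes (40.0%) passed, 1836 higher (15.9%) and 2776 lower (24.1%); such genes are called past 2-fold below. The filter on low counts took in all libraries of the experiment, so a gene could be tested through its IgG reads alone. With only the 2 groups filtered and fitted, 10018 genes were tested, 1743 past 2-fold higher and 2013 lower. For 8424 of the 11529 genes (73.1%) the 4 sorted and the 3 pull-down libraries did not overlap. The median gene had a log2 fold change of -0.15, and with scaling by total counts it moved by 0.20 to 0.05, so small differences are read relative to that shift. All fold changes are log2 values of sorted without digest over pull-down, with their standard error (SE). Levels are CPM, each gene's reads over a library's TMM-scaled total. Summed levels of lists are also given as CPM, but over the library's raw total, without TMM scaling. Levels are shares of each library, and in these bulk samples fewer cells of a type and less RNA per cell cannot be told apart.

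Neuronal messages were nearly absent from sorted cells and present in pull-down. All 28 neuronal genes tested were lower in sorted cells, 27 of them past 2-fold, with a median log2 fold change of -7.81, or -6.96 with the 7 genes that had no read in any sorted library put at their bounds. The summed level of the list was 59.9 to 69.0 CPM in sorted libraries, 4356 to 4573 in pull-down libraries and 19389 to 20781 in IgG libraries. Snap25, a protein of the machinery that releases synaptic vesicles, had 1 read over the 4 sorted libraries and 851 over the 3 pull-down libraries, a level 944 times higher in pull-down (95% exact interval of the ratio 168.9 to 37314, counting error only). Eef1a2, the elongation factor of neurons and muscle, had 0 reads in sorted libraries and 1441 in pull-down libraries, so it was at least 533-fold lower in sorted cells, taking 3 reads over the group as the limit that a count of 0 allows. Sncb (beta-synuclein) had 2 reads in sorted libraries and 3690 in pull-down libraries. The exception to the 2-fold rule was Elavl4, an RNA-binding protein of neurons, at -0.82 ± 0.19 (adjusted p = 0.00025, edgeR).

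Genes of the other brain cells mostly went the same way. Of 16 astrocyte genes tested 14 were lower in sorted cells (13 past 2-fold), with a median of -4.59. Of 15 oligodendrocyte genes 13 were lower (11 past 2-fold, median -5.86) and 1 was past 2-fold higher, at 2.81. Of 9 genes of their precursors all 9 were lower (8 past 2-fold, median -5.20). Cnp, an enzyme of myelinating cells, had 57.1, 56.3, 69.6 and 60.8 CPM in the sorted libraries, against 318, 297 and 353 CPM in the pull-down libraries. No sorted library came near a pull-down library, and the fold change was -2.40 ± 0.14 (adjusted p = 3.37e-18, edgeR); the IgG libraries averaged 682 ± 75.6 CPM (SD, n = 4). Olig1, a transcription factor of that lineage, had no read in sorted libraries and was at least 196-fold lower there. Glul, the glutamine synthetase, was an exception, at 652, 792, 769 and 599 CPM in sorted libraries and 252, 294 and 332 CPM in pull-down libraries (1.26 ± 0.14). Of 15 endothelial and 11 pericyte genes only 3 and 2 had enough reads to be tested, and 2 of each were lower in sorted cells. Few reads lie behind some of these calls, and such genes could enter the test through their IgG reads. The pericyte gene Rgs5 had 0 reads in sorted and 8 in pull-down libraries, and averaged 12.7 CPM in IgG. Among the precursor genes, Ptprz1 had 6 reads in pull-down libraries, Cspg4 11 and Pdgfra 12, and each had 0 in sorted libraries.

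**Figure D1:**
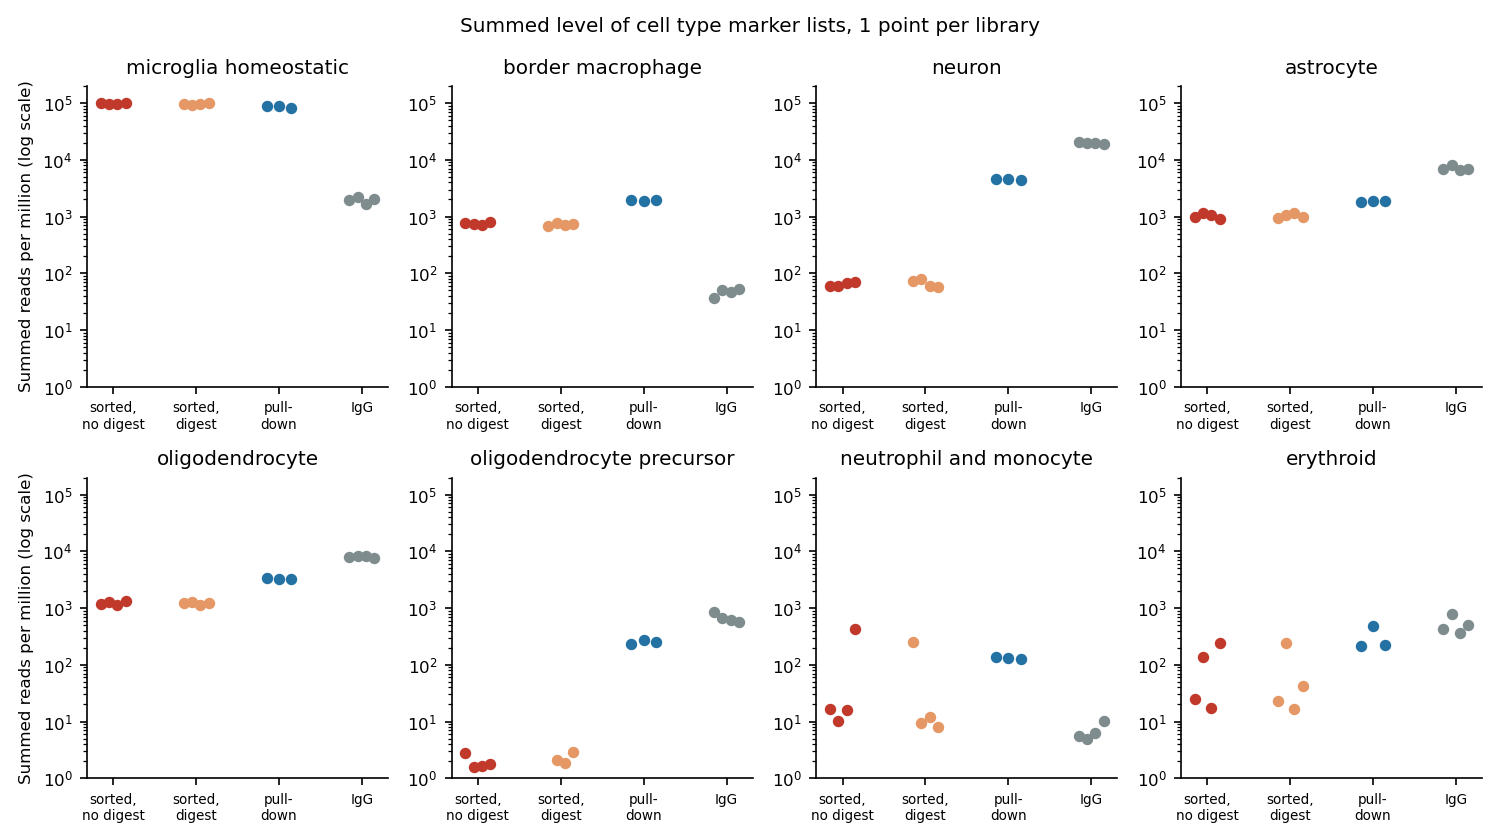
Summed CPM of cell type marker lists (log scale), 1 point per library, for cells sorted without digest, cells sorted after digest, pull-down and IgG. The microglial sums lie at 94595 to 99583 CPM in cells sorted without digest and at 81077 to 89117 in pull-down, whereas the neuronal sums lie at 59.9 to 69.0 in cells sorted without digest, 4356 to 4573 in pull-down and 19389 to 20781 in IgG.

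The microglial identity of both groups was checked with 30 genes of homeostatic microglia. Their summed level was 94595 to 99583 CPM in sorted libraries and 81077 to 89117 in pull-down libraries, whereas the IgG libraries held 1655 to 2257. These sums lack the TMM factors, which were 1.07 to 1.09 in sorted and 0.929 to 0.942 in pull-down libraries. The gap between the sorted and pull-down sums therefore depends on the scaling. No member was at 0 in either group, and all 30 passed the test as higher in pull-down than in IgG. Of all genes tested, 26.7% were higher and 47.8% lower in that contrast, and 42.7% were past 2-fold. In sorted cells 17 of the 30 were higher than in pull-down and 6 lower, 6 of them past 2-fold higher and 0 past 2-fold lower, with a median of 0.31.

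Within the microglial list the members did not move alike. Tmem119, a membrane protein that marks microglia, had 3850, 3886, 4001 and 4382 CPM in sorted libraries, against 3609, 3706 and 3552 CPM in pull-down libraries. These ranges lie next to each other, and the difference of 0.15 ± 0.12 did not pass the test (adjusted p = 0.251, edgeR), although with total-count scaling it was 0.36 and did (adjusted p = 0.0077). P2ry12, the purine receptor that steers microglial processes, had 3580, 3326, 2868 and 3213 CPM in sorted libraries, against 204, 246 and 179 CPM in pull-down libraries. All sorted libraries lay far above the pull-down libraries, with a fold change of 3.95 ± 0.16 (adjusted p = 1.45e-23, edgeR). Its neighbour in function P2ry13 was higher by 3.40 ± 0.15. Gpr34, a receptor for lysophosphatidylserine, had 851, 708, 777 and 778 CPM in sorted libraries and 9.1, 15.6 and 7.66 CPM in pull-down libraries, the largest difference in the list at 6.15 ± 0.22 (adjusted p = 4e-24, edgeR). IgG libraries averaged 9.99 ± 4.23 CPM for P2ry12 and 1.33 ± 1.56 CPM for Gpr34 (SD, n = 4), below their pull-down levels.

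The receptor of fractalkine, Cx3cr1, whose gene carries the CreER, averaged 2068 ± 180 CPM in sorted cells (SD, n = 4) and 746 ± 69.4 CPM in pull-down (SD, n = 3), a fold change of 1.47 ± 0.14. The receptor for colony-stimulating factor, Csf1r, averaged 7741 ± 395 CPM in sorted cells and 5445 ± 863 CPM in pull-down (0.51 ± 0.13, adjusted p = 0.000585, edgeR). Other members were lower in sorted cells. C1qa, a chain of complement C1q, had 11612, 10723, 11098 and 11645 CPM in sorted libraries and 17334, 17666 and 16771 CPM in pull-down libraries (-0.61 ± 0.11). Laptm5, a lysosomal membrane protein, was at 5504 ± 270 CPM in sorted cells and 11544 ± 901 CPM in pull-down (-1.07 ± 0.12). The message of Rpl22, the ribosomal protein that carries the HA tag, had 64.8, 73.6, 64.2 and 57.4 CPM in sorted libraries and 177, 144 and 183 CPM in pull-down libraries, with no overlap (-1.36 ± 0.15, adjusted p = 1.3e-10, edgeR). Both groups carry the tagged alleles, so this level is no check of the tag.

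Macrophages at the borders of the brain, in the meninges, around vessels and in the choroid plexus, also express Cx3cr1. Of 14 of their marker genes tested, 12 were past 2-fold lower in sorted cells and 1 past 2-fold higher, with a median of -4.95. Their summed level was 719.7 to 791.7 CPM in sorted libraries, against 1879 to 1990 in pull-down libraries and 36.99 to 52.54 in IgG libraries. Pf4, a chemokine of platelets and border macrophages, had 5.12, 7.51, 6.19 and 4.22 CPM in sorted libraries and 441, 388 and 510 CPM in pull-down libraries. The gap was -6.24 ± 0.26 (adjusted p = 6.02e-18, edgeR), and IgG libraries averaged 6.11 ± 3.25 CPM. Mrc1, the mannose receptor, averaged 4.46 ± 1.97 CPM in sorted cells and 35.2 ± 9.61 CPM in pull-down (-2.96 ± 0.34). The member that was higher in sorted cells was Maf, a transcription factor, at 249 ± 34.2 CPM in sorted cells and 45.6 ± 8.64 CPM in pull-down (2.45 ± 0.18).

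Of 14 neutrophil and monocyte genes 1, Mmp9, was tested. This matrix metalloproteinase had 1 read over the sorted libraries and 606 over the pull-down libraries, a ratio of 672 in favour of pull-down (95% exact interval 120.1 to 26584). The 13 members below the filter went the other way in sum, with 529 reads in sorted libraries and 29 in pull-down libraries, most of them in sorted replicate 4; the summed list reached 430 CPM there, against 10.4 to 16.7 CPM in the other sorted libraries and 126.5 to 134.7 CPM in pull-down libraries. Of 8 erythroid genes tested 2 were lower in sorted cells, and the sum of that list ranged widely within groups, at 17.7 to 237.6 CPM in sorted libraries and 216 to 488.2 in pull-down libraries; the counts of Hba-a1 and Hba-a2 were identical in every library, so reads of these near-identical genes cannot be told apart.

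Immediate early genes were higher in sorted cells. Of 9 factors of the AP-1 family tested (11 counted), 8 were higher in sorted cells, 7 of them past 2-fold, and 0 were lower, with a median of 3.44. Of 33 other immediate early genes tested, 20 were higher (19 past 2-fold) and 9 lower (9 past 2-fold), with a median of 2.45. The AP-1 sum was 7784 to 11643 CPM in sorted libraries, 516.5 to 549.2 in pull-down libraries and 418.7 to 530.9 in IgG libraries.

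The promoters of 4 of these genes, chosen after their values were seen, are shown so that the motifs discussed can be read in place. They are the 250 bases before the RefSeq start on GRCm38.p6: Fos at chr12:85473640-85473889 (plus strand), Dusp1 at chr17:26508473-26508722 (minus strand), Btg2 at chr1:134079156-134079405 (minus strand) and Zfp36 at chr7:28379229-28379478 (minus strand). Capitals mark TGACGT on either strand, which is part of the element bound by CREB and ATF factors, and in Zfp36 the CArG box, the element bound by serum response factor. Where TGACGT lies on both strands the overlapping matches form a run of 8 capitals.
Fos: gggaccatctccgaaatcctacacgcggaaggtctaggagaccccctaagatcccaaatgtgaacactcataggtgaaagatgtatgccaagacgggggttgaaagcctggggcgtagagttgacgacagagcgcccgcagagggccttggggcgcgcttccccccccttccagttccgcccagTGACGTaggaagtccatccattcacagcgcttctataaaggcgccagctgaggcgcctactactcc
Dusp1: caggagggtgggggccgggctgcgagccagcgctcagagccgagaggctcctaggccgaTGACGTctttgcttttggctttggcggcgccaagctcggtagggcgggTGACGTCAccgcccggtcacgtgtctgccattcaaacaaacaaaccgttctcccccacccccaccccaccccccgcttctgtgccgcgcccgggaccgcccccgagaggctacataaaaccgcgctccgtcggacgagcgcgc
Btg2: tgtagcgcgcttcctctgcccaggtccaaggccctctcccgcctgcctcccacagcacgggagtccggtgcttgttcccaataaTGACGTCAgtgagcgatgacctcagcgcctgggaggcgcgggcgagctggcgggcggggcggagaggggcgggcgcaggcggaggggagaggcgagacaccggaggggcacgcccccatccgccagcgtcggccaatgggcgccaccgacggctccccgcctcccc
Zfp36: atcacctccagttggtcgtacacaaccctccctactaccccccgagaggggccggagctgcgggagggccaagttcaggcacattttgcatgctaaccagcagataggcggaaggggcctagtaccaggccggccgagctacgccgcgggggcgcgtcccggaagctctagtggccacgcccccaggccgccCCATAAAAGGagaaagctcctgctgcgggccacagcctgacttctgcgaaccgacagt
Promoters were found for 22 of the 26 members of both lists that were past 2-fold higher. Egr1 and Ier2 were among those without one, so the shares do not cover them. TGACGT was found in 5 of the 22 (22.7%), in 5 of the 14 other members with a promoter (35.7%) and in 6.56% of all 27025 promoters. The AP-1 site TGACTCA, searched on both strands as well, was in 0 of the 22 and 0 of the 14, against 4.43% of all promoters. The CArG box was in 1 of the 22 (4.55%), in 2 of the 14 (14.3%) and in 1.40% of all promoters. These are letter matches in the window, and the share with TGACGT among the members past 2-fold higher was not above that among the other members.

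Fos, an AP-1 subunit, had 1421, 2248, 2106 and 1696 CPM in sorted libraries and 24.3, 17.4 and 17.9 CPM in pull-down libraries. Every sorted library exceeded every pull-down library, with a fold change of 6.56 ± 0.22 (adjusted p = 1.2e-23, edgeR), and IgG libraries averaged 55.4 ± 9.3 CPM (SD, n = 4), above the pull-down level. Jun, its partner, had 2384, 3681, 3046 and 2618 CPM in sorted libraries and 84.2, 72.8 and 82.3 CPM in pull-down libraries (5.20 ± 0.17). Junb averaged 3053 ± 424 CPM in sorted cells and 281 ± 12.9 CPM in pull-down (3.44 ± 0.15). The AP-1 member with the smallest change past 2-fold was Fosl2, at 9.49 ± 3.5 CPM in sorted cells and 2.65 ± 0.425 CPM in pull-down (1.81 ± 0.44).

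Zfp36, which encodes a protein that destabilizes cytokine messages, had 2547, 3551, 3118 and 3013 CPM in sorted libraries, against 41.7, 30.5 and 35.1 CPM in pull-down libraries. The groups lay far apart (6.42 ± 0.18, adjusted p = 4.61e-28, edgeR), and its IgG level was 5.84 ± 2.08 CPM. Dusp1, a phosphatase of MAP kinases, had 660, 1550, 1090 and 1049 CPM in sorted libraries and 18.2, 35.5 and 37.7 CPM in pull-down libraries (5.14 ± 0.35). Btg2, an antiproliferative factor, had 1345, 1782, 1662 and 1776 CPM in sorted libraries and 72, 59.7 and 87.4 CPM in pull-down libraries (4.49 ± 0.17). Egr1, a zinc finger transcription factor, averaged 2794 ± 541 CPM in sorted cells and 81.5 ± 16.8 CPM in pull-down (5.10 ± 0.18). Klf4 varied among the sorted libraries, with 205, 590, 254 and 241 CPM, against 7.58, 3.73 and 2.55 CPM in pull-down libraries.

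Some immediate early genes did not rise. Nr4a1, a nuclear receptor, had 77.6, 132, 85.8 and 127 CPM in sorted libraries and 78.9, 77.8 and 135 CPM in pull-down libraries, so the groups overlapped (0.12 ± 0.26, adjusted p = 0.683, edgeR). Gadd45b, a stress sensor, stood at 0.06 ± 0.21. Arc, Egr4 and Npas4, which neuronal activity is known to induce, were among the 9 lower members, with 3, 1 and 1 reads over the sorted libraries. For these the neuronal sums given above moved in the same direction; their part in the result was not tested.

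Cytokine genes and their regulators through NF-kB were higher in sorted cells as well. Of 18 tested, 14 were higher (10 past 2-fold) and 0 lower, with a median of 1.65. Tnf, the tumour necrosis factor, had 107, 113, 85.8 and 146 CPM in sorted libraries and 1.52, 0.622 and 0 CPM in pull-down libraries. In reads this was 559 over the sorted libraries and 3 over the pull-down libraries, a ratio of levels of 168 (95% exact interval 57.21 to 817.3). The alarm cytokine Il1a had 428 reads over the sorted libraries and 2 over the pull-down libraries (ratio 193, interval 53.1 to 1599). Nfkbiz, a nuclear regulator of NF-kB targets, had 451 reads in sorted and 2 in pull-down libraries (ratio 203, interval 55.97 to 1684). Il6 had 63 reads in sorted libraries and 0 in pull-down libraries, at least 18.9-fold higher in sorted cells. Il1b differed less, at 14.1 ± 4.23 CPM in sorted cells and 5.64 ± 1.24 CPM in pull-down, called at 1.32 ± 0.38 (adjusted p = 0.00195, edgeR) but not past 2-fold.

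Chemokine genes split. Of 12 tested, 8 were higher (6 past 2-fold) and 2 lower (1 past 2-fold), with a median of 1.54. Ccl3, which draws macrophages and lymphocytes, had 538, 835, 603 and 684 CPM in sorted libraries and 22, 9.95 and 9.57 CPM in pull-down libraries (5.62 ± 0.24, adjusted p = 3.45e-19, edgeR). The related Ccl4 averaged 497 ± 82.9 CPM in sorted cells and 40.2 ± 4.7 CPM in pull-down (3.62 ± 0.17), and the monocyte chemokine Ccl2 averaged 292 ± 50.3 CPM in sorted cells and 3.87 ± 2.04 CPM in pull-down (6.16 ± 0.29). The 2 lower members were Ccl24 (-2.16 ± 0.30) and Ccl5 (-1.13 ± 0.20). Ccl24 averaged 7.11 ± 2.62 CPM in sorted cells and 31.8 ± 5.49 CPM in pull-down, and it had no read in the IgG libraries.

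**Figure D2:**
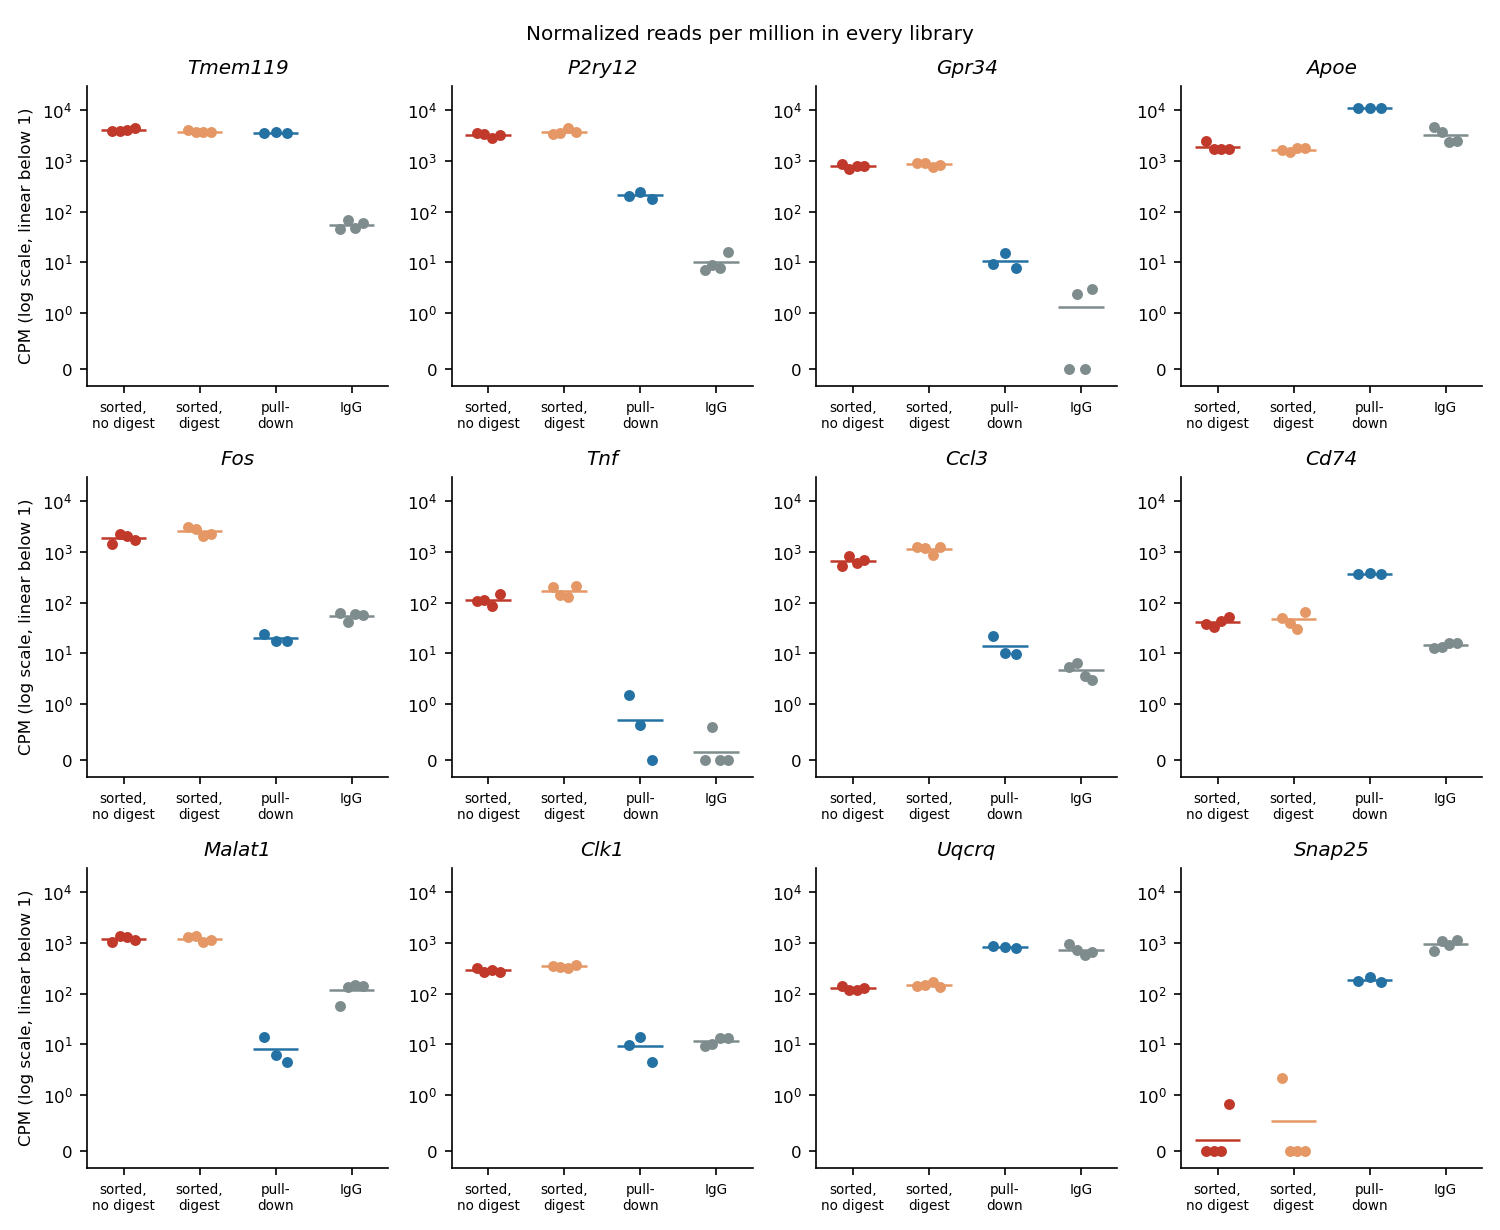
CPM of 12 genes in every library (log scale, linear below 1), with the group mean as a bar, for cells sorted without digest, cells sorted after digest, pull-down and IgG. Tmem119 lies at 3552 to 4382 CPM in cells sorted without digest and in pull-down, whereas Fos lies at 1421 to 2248 CPM in cells sorted without digest and at 17.4 to 24.3 CPM in pull-down.

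Receptors by which microglia sense antibodies and microbial products were mostly higher in sorted cells: of 21 tested 15 were higher (12 past 2-fold) and 3 lower (0 past 2-fold), with a median of 1.42. Tlr7, which senses single-stranded RNA, had 235, 217, 235 and 236 CPM in sorted libraries and 6.83, 3.11 and 2.55 CPM in pull-down libraries. That is a fold change of 5.81 ± 0.24 (adjusted p = 7.98e-23, edgeR), and IgG libraries averaged 2.47 ± 2.32 CPM. C3ar1, the receptor for complement fragment C3a, averaged 247 ± 16.4 CPM in sorted cells and 16.4 ± 2.47 CPM in pull-down (3.91 ± 0.20). Of 22 interferon-stimulated genes 13 were higher (6 past 2-fold) and 4 lower (2 past 2-fold), with a median of 0.94. Heat shock genes were mixed, with 7 higher and 5 lower of 15 and a median of 0.52.

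More genes of antigen presentation were lower than higher in sorted cells, class II genes by the most. Of 14 genes tested 2 were higher (1 past 2-fold) and 8 lower (4 past 2-fold), with a median of -0.43. Of all genes tested 40.9% were lower and 24.1% past 2-fold lower, so the count past 2-fold is near the share of all genes. The summed list was not lower in sorted cells, at 6952 to 8267 CPM against 6577 to 7171 in pull-down. The class II invariant chain Cd74 had 37.5, 33, 44.1 and 51.5 CPM in sorted libraries and 371, 379 and 366 CPM in pull-down libraries (-3.16 ± 0.17, adjusted p = 1.11e-19, edgeR). The class II chain H2-Aa averaged 24.6 ± 12.1 CPM in sorted cells and 708 ± 52 CPM in pull-down (-4.85 ± 0.44). B2m, the light chain of class I molecules, averaged 3243 ± 330 CPM in sorted cells and 1255 ± 243 CPM in pull-down (1.37 ± 0.15). Class II genes are also expressed by border macrophages, whose list sums moved the same way; their part in the result was not tested.

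Of 20 genes known from disease-associated microglia 6 were higher and 8 lower (2 and 5 past 2-fold), with a median of -0.21. These counts of calls are near the shares of all genes tested, 31.9% higher and 40.9% lower. Apoe, the lipid carrier made by astrocytes and macrophages, had 2445, 1708, 1727 and 1718 CPM in sorted libraries, against 10814, 10909 and 11098 CPM in pull-down libraries. Every sorted library was far below, with replicate 1 apart from the other 3 (-2.53 ± 0.18, adjusted p = 3.69e-11, edgeR, and -2.68 without replicate 1). IgG libraries averaged 3287 ± 1089 CPM, and the astrocyte list summed to 894.8 to 1156 CPM in sorted libraries, 1817 to 1910 in pull-down and 6594 to 8054 in IgG; the part of astrocyte RNA in the result was not tested. Lysosomal genes were balanced, with 12 higher and 8 lower of 28 and a median of 0.04. The lysosomal membrane proteins Lamp1 and Lamp2 went opposite ways: Lamp2 averaged 160 ± 23.4 CPM in sorted cells and 8.24 ± 0.136 CPM in pull-down (4.26 ± 0.23), and Lamp1 averaged 1019 ± 83.5 CPM in sorted cells and 3227 ± 142 CPM in pull-down (-1.66 ± 0.13).

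RNAs that act in the nucleus were mostly higher in sorted cells. Of 10 nuclear long noncoding RNAs tested (15 counted) 7 were past 2-fold higher in sorted cells and 3 past 2-fold lower, with a median of 5.64. Malat1, which localizes to nuclear speckles, had 1049, 1343, 1319 and 1149 CPM in sorted libraries and 13.6, 6.22 and 4.47 CPM in pull-down libraries. The fold change was 7.26 ± 0.36 (adjusted p = 7.17e-12, edgeR), and IgG libraries averaged 118 ± 41.7 CPM, more than the anti-HA pull-down. Neat1, the scaffold of paraspeckles, had 218, 216, 227 and 214 CPM in sorted libraries and 5.31, 3.73 and 3.83 CPM in pull-down libraries (5.66 ± 0.25). Kcnq1ot1, an imprinted antisense RNA, had 162 reads over the sorted libraries and 0 over the pull-down libraries, at least 48.7-fold higher in sorted cells. The 3 lower members included Meg3, an imprinted RNA abundant in neurons, at 0.85 ± 1.21 CPM in sorted cells, 15.2 ± 4.42 CPM in pull-down and 175 ± 42.5 CPM in IgG (-4.08 ± 0.56 for sorted over pull-down).

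Messages for the splicing machinery were higher in sorted cells too, although these encode proteins. Of 39 splicing genes tested 27 were higher (21 past 2-fold) and 6 lower (1 past 2-fold), with a median of 1.69, and of 13 host genes of small nucleolar RNAs 9 were higher (8 past 2-fold) and 1 lower, with a median of 1.93. Clk1, a kinase of splicing factors, had 323, 268, 296 and 267 CPM in sorted libraries and 9.86, 13.7 and 4.47 CPM in pull-down libraries (4.93 ± 0.21, adjusted p = 1.07e-22, edgeR). Ddx5, an RNA helicase, averaged 1154 ± 105 CPM in sorted cells and 129 ± 7.45 CPM in pull-down (3.15 ± 0.16). The member past 2-fold lower was Hnrnpab, an RNA-binding protein, at 157 ± 7.05 CPM in sorted cells and 522 ± 15.1 CPM in pull-down (-1.73 ± 0.14).

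Genes of energy metabolism and of the ribosome itself were lower in sorted cells. Of 74 respiratory chain and ATP synthase genes tested, 65 were lower (50 past 2-fold) and 2 higher (1 past 2-fold), with a median of -1.53. Uqcrq, a subunit of complex III, had 141, 118, 117 and 131 CPM in sorted libraries and 867, 845 and 802 CPM in pull-down libraries (-2.73 ± 0.15, adjusted p = 1.63e-19, edgeR). IgG libraries averaged 725 ± 161 CPM for Uqcrq, near the pull-down level, and the whole list summed to 8294 to 8903 CPM in sorted libraries, 22709 to 23189 in pull-down and 25727 to 32420 in IgG. Of 19 glycolysis genes 12 were lower (9 past 2-fold) and 2 higher, with a median of -1.03, and Pkm, pyruvate kinase, averaged 304 ± 30.1 CPM in sorted cells, 978 ± 51.4 CPM in pull-down and 2818 ± 34.8 CPM in IgG. Of 67 cytosolic ribosomal protein genes 50 were lower (27 past 2-fold) and 5 higher (3 past 2-fold), with a median of -1.14. Rplp1, a protein of the ribosomal stalk, had 1755, 1875, 1569 and 1670 CPM in sorted libraries and 6807, 6942 and 6922 CPM in pull-down libraries (adjusted p = 2.31e-16, edgeR). That list summed to 12958 to 14221 CPM in sorted libraries, 31193 to 33198 in pull-down and 15173 to 17737 in IgG. What part background RNA of the pull-down has in these differences was not tested.

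A few members of the same lists went the other way, and they are named after their values were seen. The ribosomal protein gene Rpl39 had 71.6, 66.8, 52.6 and 40.5 CPM in sorted libraries and 3.03, 3.73 and 2.55 CPM in pull-down libraries (4.17 ± 0.38), with 29.9 ± 16.6 CPM in IgG. Uqcrb, a further subunit of complex III, averaged 50.1 ± 7.5 CPM in sorted cells, 4.39 ± 2.82 CPM in pull-down and 51.8 ± 22.5 CPM in IgG. The proteasome ATPase Psmc6 averaged 62.2 ± 7.77 CPM in sorted cells, 2.84 ± 1.91 CPM in pull-down and 30.8 ± 16.3 CPM in IgG, and the initiation factor subunit Eif3e averaged 33.7 ± 1.22 CPM in sorted cells, 1.8 ± 1.01 CPM in pull-down and 22.6 ± 11.9 CPM in IgG. All 4 were thus lower in the anti-HA pull-down than in its IgG background. Their lists as a whole did not rise: of 34 proteasome genes 17 were lower and 10 higher (median -0.42), of 32 genes of translation initiation and elongation 16 were lower and 8 higher (median -0.43), and of 72 mitochondrial ribosomal protein genes 42 were lower and 8 higher (median -0.52).

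**Figure D3:**
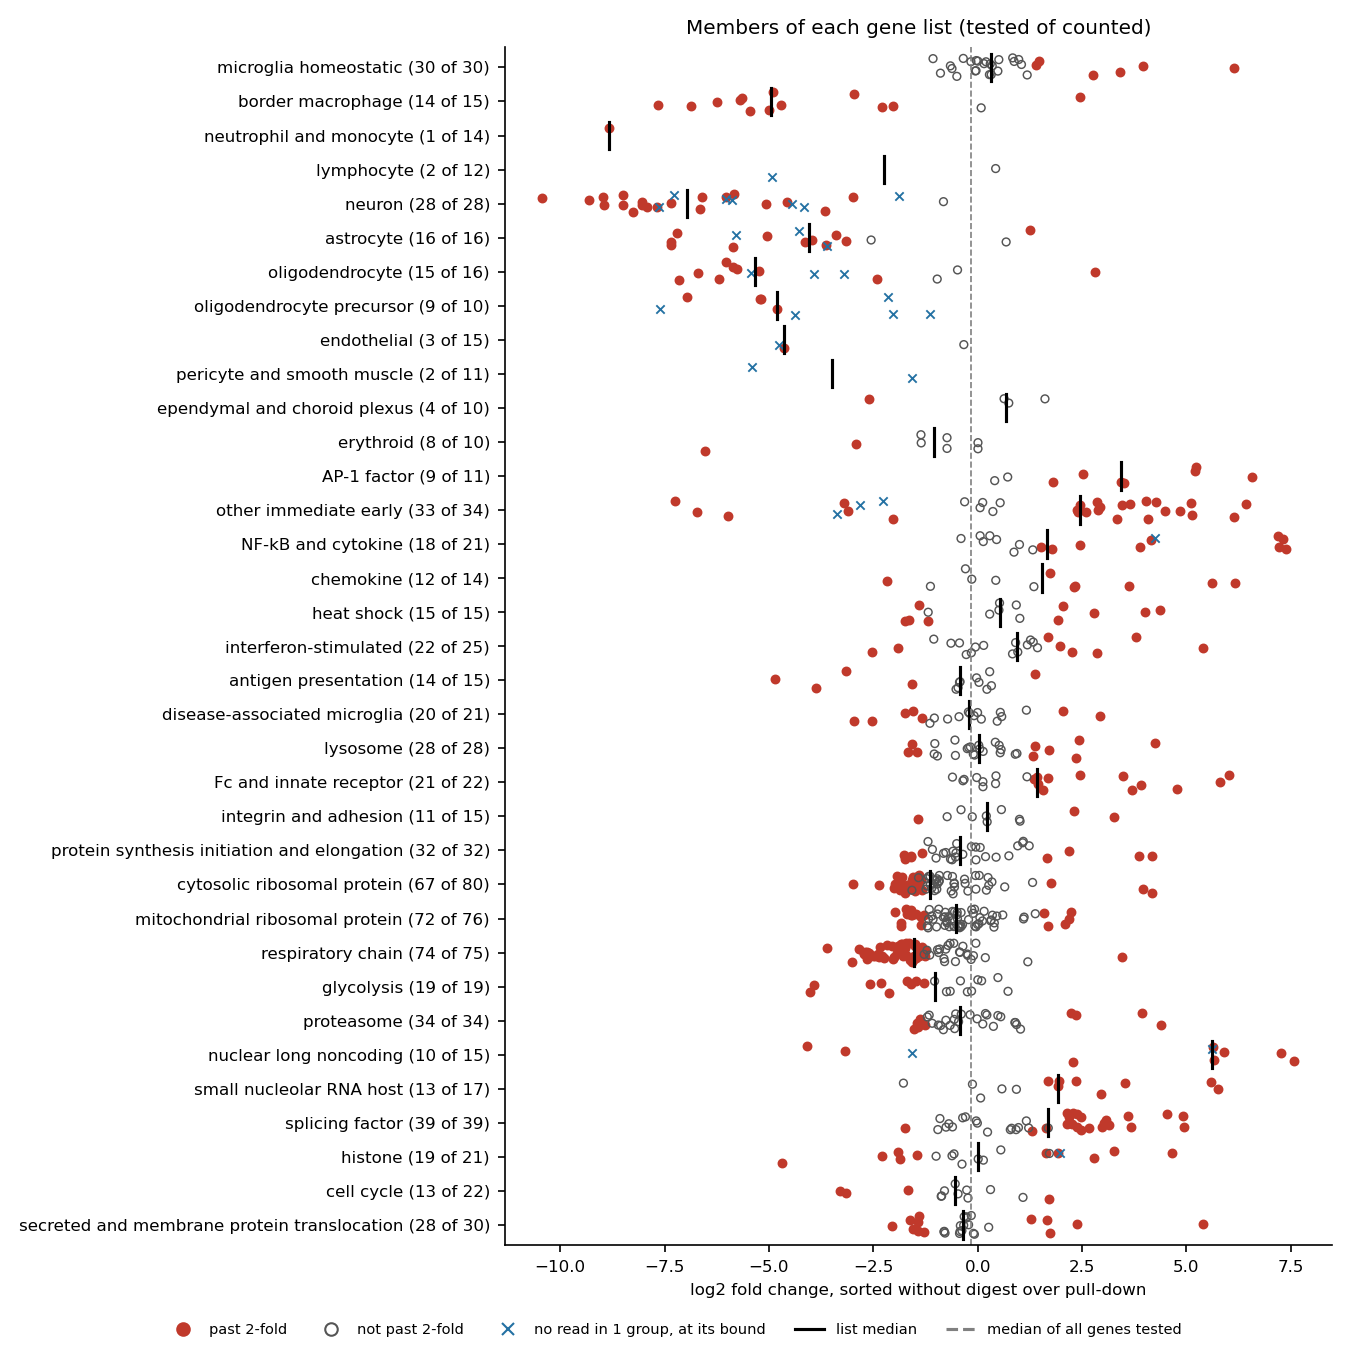
Log2 fold changes of sorted without digest over pull-down for the members of each list, 1 point per gene (filled, past 2-fold; crosses, genes with no read in 1 group, drawn at their bound), with list medians as bars and the median of all genes tested, -0.15, as a dashed line. AP-1 factors and nuclear long noncoding RNAs lie mostly to the right, and neuronal, glial, border macrophage and respiratory chain genes mostly to the left.

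The remaining lists were mixed or lower. Of 19 histone genes 7 were higher and 9 lower (median 0.01), and of 13 cell cycle genes 2 were higher and 6 lower (median -0.54). Of 28 genes that move proteins into the secretory pathway 5 were higher and 15 lower (median -0.36), and of 11 integrin and adhesion genes 5 were higher and 3 lower (median 0.23). Of 4 ependymal and choroid plexus genes tested 1 was higher and 1 lower, and the sum of that list ranged from 879.6 to 2562 CPM in sorted libraries and from 597.2 to 881.9 in pull-down libraries. Of 2 lymphocyte genes tested Cd4 was lower and Cd79b higher, and Cd79b lost its call with DESeq2, without sorted replicate 1, 2 or 3 and without pull-down replicate 1 or 3 (log2 fold changes 0.34 to 0.45).

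The 2 sorting protocols differed by the digest, and cells sorted without it were set against cells sorted after it. Of the 11529 genes 16 passed the test (0.139%), 2 higher without digest (0.0173%) and 14 lower (0.121%), and 0 passed 2-fold; at an unadjusted p of 0.05, 521 genes differed. Ccl2 and Metrn were higher without digest, by 0.95 and 1.18. The 14 lower genes were Adamts1, Atf3, Ccl3, Ccl4, Ccrl2, Gadd45b, Gem, Hist1h1d, Hist1h1e, Id2, Nfkbiz, Ppp1r15a, Rgs1 and Socs3. Atf3, a stress-induced AP-1 partner, averaged 364 ± 137 CPM without digest and 1027 ± 175 CPM after it (-1.49, adjusted p = 0.00048, edgeR), and 32.2 ± 5.33 CPM in pull-down. Ccl4 averaged 497 ± 82.9 CPM without digest and 1062 ± 147 CPM after it (-1.09). Fos averaged 1868 ± 379 CPM without digest and 2557 ± 460 CPM after it, a difference of -0.45 that did not pass the test (adjusted p = 0.51, edgeR). This contrast shares the 4 libraries sorted without digest with the one against pull-down.

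A second set of libraries, with its own mice and its own table, allowed the same kind of contrast. In the PBS-injected mice of the LPS experiment, of the same genotype and tamoxifen treatment, 3 libraries of sorted microglia were set against 3 pull-downs from brain; whether that sort used the digest is not given in the sources used here. Xist had 0 or 1 read in these 6 libraries, and Ddx3y had 108 to 180 reads in the sorted libraries and 18 to 55 in the pull-downs, so the sets also differ in these sex-linked RNAs. Of 11444 genes 8226 passed the test there (71.9%), 3798 higher (33.2%) and 4428 lower (38.7%), and 4877 (42.6%) were past 2-fold. Of 10930 genes tested in both tables, 4366 were past 2-fold in the libraries without digest and 4656 in the PBS mice. Both sets held 3717 of them in the same direction, which is 85.1% of the 4366 and 79.8% of the 4656, and 0 in opposite directions. Across genes, which are not independent replicates, the fold changes correlated with r = 0.912.

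Immediate early genes had smaller median fold changes in the PBS mice than in the libraries without digest. In PBS mice 5 of 9 AP-1 factors were higher and 0 lower, with a median of 0.79, against 3.44 in the libraries without digest. Of 31 other immediate early genes 17 were higher and 13 lower there, with a median of 0.92. Fos had 486, 515 and 499 CPM in sorted libraries of PBS mice and 25.6, 24.3 and 19.1 CPM in their pull-downs (4.43 ± 0.26). Junb differed by 1.19 ± 0.17 in PBS mice, and Jund by 0.00 ± 0.24, against 2.53 ± 0.16 in the libraries without digest. Nr4a1, which overlapped between the groups without digest, had 3.67, 13.8 and 15.4 CPM in sorted libraries of PBS mice and 91.3, 130 and 117 CPM in their pull-downs (-3.47 ± 0.42). The differences between the sets were not tested, and the tables come from separate experiments.

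Other lists are given for the PBS mice in the same way. Of 39 splicing genes 28 were higher and 5 lower (median 2.31), 59 of 74 respiratory chain genes were lower and 2 higher (median -1.35), 49 of 67 cytosolic ribosomal protein genes were lower and 4 higher (median -1.07), and 12 of 14 border macrophage genes were lower (median -5.62). Of the cytokine and NF-kB genes 14 of 18 were higher and 1 lower (median 1.38). P2ry12 differed by 4.04 ± 0.21 there, and Apoe by -2.65 ± 0.23. Of 28 neuronal genes 27 were lower, with a median of -3.96, against -7.81 in the libraries without digest. Snap25 had 18.3, 26.3 and 29.4 CPM in sorted libraries of PBS mice and 167, 166 and 180 CPM in their pull-downs, whereas it had 1 read over the 4 libraries sorted without digest.

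**Figure D4:**
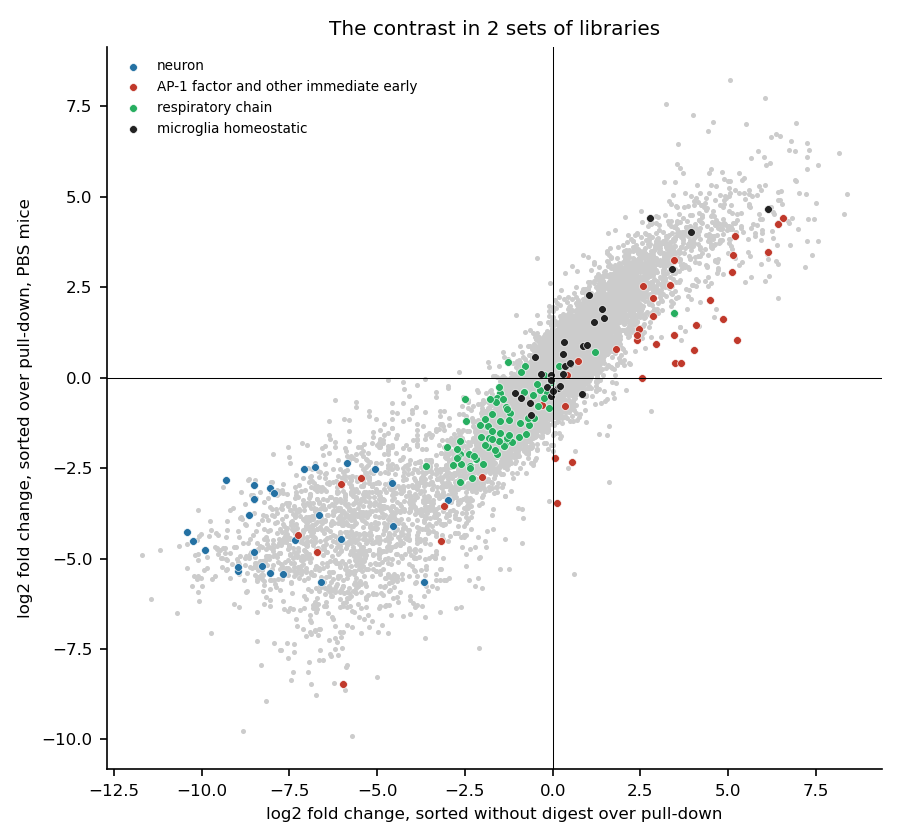
Log2 fold changes of sorted over pull-down per gene, in cells sorted without digest (x) and in PBS mice of the LPS experiment (y), with 4 lists in colour and all genes tested in both in grey. Points follow the diagonal with r = 0.912, and the AP-1 factors have a median of 3.44 on the horizontal axis and 0.79 on the vertical axis.

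The PBS mice also offer a pull-down from cells that had already been sorted. It keeps the sort and adds the anti-HA pull-down, with its antibody incubation of 4 h and its own background. Against whole RNA of the sorted cells, 3645 of 11444 genes passed the test in the pull-down from sorted cells (31.9%), 1905 higher (16.6%) and 1740 lower (15.2%), and 418 (3.65%) were past 2-fold. The higher genes made up 52.3% of those called, 31.7% where libraries were scaled to their total counts and 65.0% with no filter on low counts. The pull-downs from sorted cells held 288090 to 669508 reads. This contrast and that of sorted cells against pull-down from brain share the 3 sorted libraries, so their values are given side by side only.

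Nuclear RNAs and splicing genes were mostly lower in pull-down from sorted cells. AP-1 and cytokine genes had medians near 0, with some members lower. Fos had 297, 233 and 253 CPM in pull-down from sorted cells, against 486, 515 and 499 CPM in sorted cells (-0.93 ± 0.22, adjusted p = 0.000993, edgeR), and thus lay above the 19.1 to 25.6 CPM of the pull-down from frozen brain. Zfp36 differed by 0.14 ± 0.18 and did not pass the test (adjusted p = 0.591). Jun (-1.38 ± 0.17) and Egr1 (-1.99 ± 0.22) were lower. Of the immediate early genes outside the AP-1 family 3 were higher and 7 lower, with a median of 0.19. Of the 9 AP-1 factors 0 were higher and 3 lower in pull-down from sorted cells, beside the 16.6% and 15.2% of all genes given above, with a median of -0.06. Of the 18 cytokine and NF-kB genes 1 was higher and 3 lower, with a median of -0.03. Nfkbiz was lower by -1.71 ± 0.43 and Il1a by -1.31 ± 0.35. Malat1 had 147, 170 and 153 CPM in pull-down from sorted cells and 764, 952 and 935 CPM in sorted cells (-2.50 ± 0.24). Of 9 nuclear long noncoding RNAs 5 were lower and 1 higher (median -2.11), and of 39 splicing genes 24 were lower and 2 higher (median -1.25), with Clk1 at -1.68 ± 0.19 and Son, a speckle protein, at -2.62 ± 0.18.

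The genes lower in sorted cells split as well. In pull-down from sorted cells 20 of 28 neuronal genes were higher and 0 lower, with a median of 2.21, and 23 of 74 respiratory chain genes were higher and 0 lower, with a median of 0.25 against -1.35 for sorted cells over pull-down from brain. Of 67 cytosolic ribosomal protein genes 13 were higher and 8 lower, with a median of 0.17, near the 16.6% and 15.2% of all genes. Apoe differed by 1.36 ± 0.22 and Cd74 by 0.81 ± 0.45 (adjusted p = 0.178), whereas Uqcrq differed by 0.11 ± 0.20 (adjusted p = 0.702). P2ry12 differed by -0.42 ± 0.19 (adjusted p = 0.0787, edgeR for all), with 3515, 4008 and 3204 CPM in pull-down from sorted cells and 4946, 5104 and 4282 CPM in sorted cells. Its level of 266 to 331 CPM in pull-down from frozen brain of the same experiment was far below both.

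**Figure D5:**
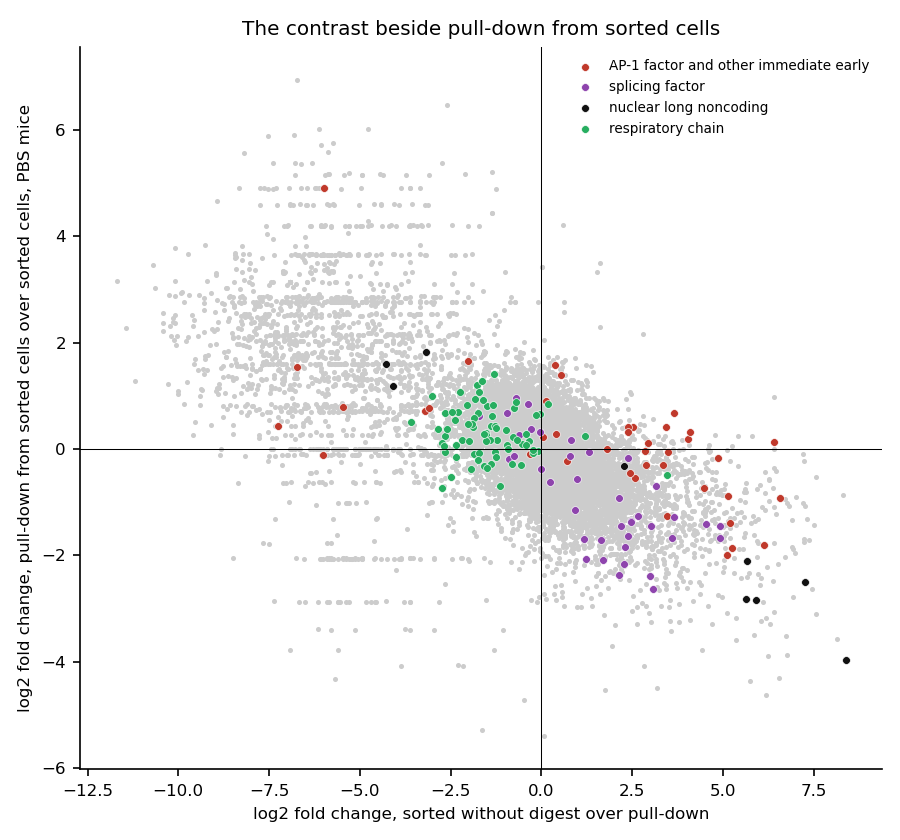
Log2 fold changes per gene of sorted without digest over pull-down (x) and of pull-down from sorted cells over sorted cells in PBS mice (y), with 4 lists in colour and all genes tested in both in grey. Nuclear long noncoding RNAs high on the horizontal axis lie low on the vertical axis (Malat1 at 7.26 and -2.50), while respiratory chain genes lie left of 0 horizontally and near 0 vertically (medians -1.53 and 0.25).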

How the data were processed

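RNA was measured by sequencing in 15 libraries of the sorting-method experiment. The values used are whole-number counts of reads per gene as the authors deposited them, and per the submitters' processing notes bcl2fastq, HISAT 0.1.5, HOMER and the mm9 build were used; annotation, strandedness and duplicate handling are not given in the sources used here. Antisense or overlapping genes and near-identical copies may therefore share reads. From the counts, genes were kept by edgeR's filterByExpr (minimum count 10), scaled by TMM and fitted with edgeR 4.0.16 (quasi-likelihood, robust) in R 4.3.3, in 1 model of group means over all 15 libraries; p-values were adjusted by Benjamini and Hochberg over all genes tested. The test against a fold of 2 was glmTreat. The filter took in all 15 libraries, IgG included. Each SE was worked out from the fold change and the F statistic of the quasi-likelihood test, so it is approximate, above all where reads are few. The PBS mice of the LPS experiment came from a table of 28 libraries fitted the same way; the 24 libraries of the driver experiment were not used here. Where a group had 0 reads a bound was taken at 3 reads over that group, and where it had 1 to 3 reads the ratio has a 95% exact interval; bounds and intervals cover counting error only, since PCR duplicates cannot be told from molecules. Levels are CPM, so only relative amounts are compared, and the precision is limited by 685218 to 1843618 reads per library.

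Named genes are the 12 largest and 12 smallest fold changes among genes past 2-fold whose libraries do not overlap and whose higher group averages 20 CPM or more (leaving out predicted, Rik, microRNA and small nuclear or nucleolar RNA genes), the 3 smallest p-values of each list, and fixed marker genes. Some of them are not reported here. Other list members are examples chosen after their values were seen. The members and lists were chosen with earlier results of these data known. The groups share replicate numbers 1 to 3 in the labels, but no label ties a number to a mouse, so no block was used. The deviations of same-numbered libraries correlated below 0.1, which does not exclude shared mice. Promoters are RefSeq sequences on GRCm38.p6, searched over 250 bases, and were matched to genes by symbol. The alternatives tried were other scalings, other filters, DESeq2 1.42.0, the replicate block, the 2 groups alone and each library left out. The fitting steps were tested on simulated data.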

Additional observations from a re-analysis of the deposited data

Results flagged for a closer look

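Of 164 values examined within the 4 libraries sorted without digest, 10 had 1 library far from the other 3; chance flags about 1 in 20 groups. For genes of other cells these were single reads: Stmn3 and Mmp9 stood at 0.751 CPM in replicate 2, Ly6c1 at 0.853 CPM in replicate 1 and Snap25 at 0.844 CPM in replicate 4, each with 0 in the other 3. The summed oligodendrocyte precursor markers reached 2.78 CPM in replicate 1, against 1.60 to 1.79 in the others. The summed neutrophil and monocyte markers reached 430 CPM in replicate 4, against 10.4 to 16.7 in the other 3 sorted libraries.

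Among genes with many reads, the endoplasmic chaperone Hspa5 stood at 523 CPM in replicate 1, against 603.1 to 617.4 CPM in the others. Hsp90ab1, a cytosolic chaperone, stood at 459 CPM in replicate 3, against 393.9 to 404.3 CPM. Apoe stood at 2445 CPM in replicate 1, against 1708 to 1727 CPM, and Tlr7 at 217 CPM in replicate 2, against 235.1 to 236.3 CPM.

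For 2 named genes all libraries lay in opposite directions in the 2 sets, and the difference was not tested. Folr1, a folate receptor of the choroid plexus, had a log2 fold change of sorted over pull-down of 1.61 without digest and -2.88 in PBS mice, with at most 30 reads in any of these libraries. Tmem119 had 0.15 without digest and -0.28 in PBS mice, and neither passed the test.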

How the results depend on the processing

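The total counts of calls against pull-down stayed within 1.5 times under every alternative: 7569 to 9316 genes called against 8397 (8021 to 8195 with a library left out), and 3461 to 5220 past 2-fold against 4612 (4472 to 4560 with a library left out). With total-count scaling 51.1% of the called genes were higher, against 43.8% with TMM, so which direction held more calls turned with the scaling. The small count of the digest contrast moved: of sorted without digest against sorted after digest 16 genes were called, and 25 without a filter on low counts, 25 with DESeq2 and 30 with only the 2 groups fitted; the range was 13 to 23 with a library left out. The cause was not tested. In PBS mice 7611 to 7985 genes were called between sorted cells and pull-down with a library left out, and 2686 to 3339 between pull-down from sorted cells and sorted cells, where 31.7% of the called genes were higher with total-count scaling, 58.6% with DESeq2's size factors, 60.5% with DESeq2 and 65.0% with no filter on low counts, against 52.3%. Between sorted cells and pull-down of PBS mice 46.2% of the called genes were higher, 52.3% with total-count scaling and 32.2% with no filter.

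With the replicate number as a block 8368 genes were called and 4631 were past 2-fold without digest against pull-down, 24 in the digest contrast, 8300 in PBS mice and 3825 for pull-down from sorted cells. The deviations of same-numbered libraries correlated at 0.00789 to 0.0311, and 5 of 6 libraries correlated best with their own number in the main contrast. In PBS mice the range was 0.0228 to 0.0802 and 6 of 6 libraries did so for sorted cells against pull-down, and 0.0159 to 0.0885 and 5 of 6 for pull-down from sorted cells. In the digest contrast the range was -0.0292 to 0.0412 and 3 of 8 libraries did so. Libraries with different numbers reached 0.0179 in the main contrast and 0.0525 in the digest contrast. The contrasts thus differ. All same-numbered values lay below 0.1, which does not exclude shared mice, since counting error is part of each deviation. In the LPS experiment the titles carry a running number that recurs across preparations. No label says that numbers mark animals, so the numbers were not read as pairs. No named gene lost or gained its call under the block.

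Of 130 named genes none changed sign, 1802 of 1810 refits kept their side of the threshold, 7 lost their call and 1 gained one: Tmem119 with total-count scaling (0.36, adjusted p = 0.0077, edgeR). The losses were Cd79b, a lymphocyte marker with a small fold change (0.43), and Mapk8ip2 with the 2 groups alone. At this depth genes below the filter of 10 reads were not tested, and differences among them were not detectable.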

Other observations

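The gene families here lie outside the lists and were chosen after their values were seen. Of 265 tested genes whose symbols start with Zfp and a digit, most of which encode zinc finger proteins, 114 were past 2-fold higher in cells sorted without digest (43.0%) and 18 lower (6.79%), with a median log2 fold change of 1.26, against 15.9% and 24.1% of all genes tested. In pull-down from sorted cells over sorted cells of PBS mice, 18 of 240 passed the test as higher and 66 as lower, with a median of -0.57. Of 54 tested genes whose symbols start with Kcn, most of which encode potassium channels, 2 were past 2-fold higher (3.70%) and 42 lower (77.8%). All 5 tested small nucleolar RNAs were past 2-fold higher in sorted cells, with a median of 6.63, and 3 of 3 were lower in pull-down from sorted cells.

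Ap2b1, a subunit of the clathrin adaptor, averaged 55.8 ± 6.43 CPM in sorted cells (SD, n = 4), 4852 ± 215 CPM in pull-down (SD, n = 3) and 348 CPM in IgG, a fold change of -6.44 ± 0.15 for sorted over pull-down, and -5.20 in PBS mice. Zfp687, a zinc finger protein, averaged 24.0 CPM in sorted cells, 493 CPM in pull-down and 37.5 CPM in IgG (-4.34 ± 0.18, and -3.49 in PBS mice). Both were chosen after their values were seen.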
